A study of Mus musculus with 3 samples.

Results

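The 9 genes described here act in hepatic defence against reactive oxygen and were followed over 3 mouse liver arrays: the superoxide dismutase genes Sod1, Sod2 and Sod3, the catalase gene Cat, the glutathione peroxidase genes Gpx1, Gpx3 and Gpx4, and the metallothionein genes Mt1 and Mt2. They were chosen by gene symbol, and all 9 were found among the 30921 symbols of the array's main design, each with 1 probe set that the annotation marks as unique to its transcript. The study measured liver RNA of ICR mice, an outbred stock, on MoGene-2_0-st arrays, with 1 array for each of 3 groups. Mice of the EEC+TMA group received Ecklonia cava, a brown alga, as an oral ethanol extract (EEC) for 2 weeks and were exposed to trimethylamine (TMA), a malodorous amine oxidised by the liver, for 24 hours. Mice of the TMA group received distilled water for 2 weeks and the same TMA exposure, and mice of the no treatment group received neither. The groups were formed at 8 weeks of age and liver was taken at 10 weeks. The labels name no genetic alteration in any group, and whether RNA came from a single mouse or a pool is left unsaid, as are the sex of the mice, the TMA route and both doses. No group had a replicate, so there was no error and no test, and each difference given here separates 2 arrays and not 2 treatments. In whole liver, fewer cells of a type and less RNA per cell cannot be told apart.

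Superoxide dismutases turn superoxide, a by-product of respiration and of cytochrome P450 turnover, into hydrogen peroxide and oxygen. Catalase, which sits in peroxisomes, and the glutathione peroxidases then reduce hydrogen peroxide and lipid peroxides to water and alcohols. Metallothioneins are small cysteine-rich proteins that bind zinc and copper and are strongly induced in liver by metals, glucocorticoids and acute inflammation. Hepatocytes hold large amounts of catalase and of the cytosolic and mitochondrial dismutases, whereas the extracellular forms come largely from other tissues.

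A gene was taken as measured on an array where its log2 value reached the 95th percentile of 1525 chemosensory receptor probe sets, genes that liver should not express. That background level was 3.15 with EEC+TMA, 3.25 with TMA and 3.14 without treatment. All 9 genes lay above it on every array. The closest was Gpx3, whose smallest margin was 1.09, and 15655 genes in all were measured on the 3 arrays. Hepatocyte markers identified the tissue on each array, with 11 of 11 found markers measured, among them Apob at 12.05 with EEC+TMA, 11.73 with TMA and 12.50 without treatment. Values are log2 summaries per probe set, so a level of 1 gene is not set against that of another.

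The TMA array differed from the others by a shift that varied with level and touches several of these genes. For TMA minus no treatment, the median log2 difference was 0 among genes with a mean level below 6, -0.13 between 6 and 7, -0.24 between 9 and 10 and -0.24 between 10 and 11. For EEC+TMA minus TMA the corresponding medians were 0, 0.11, 0.24 and 0.26, and for EEC+TMA minus no treatment they stayed between 0 and 0.04 at these levels. Sod1, Gpx1 and Sod2 lie in the intervals with the shift, and Cat lies above 12, where the median was -0.06 for TMA minus no treatment. Control probe sets for the poly-A spike-in RNAs had the opposite order, their median being 4.98 with EEC+TMA, 5.76 with TMA and 4.95 without treatment. Hybridization spike-in controls shared that order, at 7.03 with EEC+TMA, 7.49 with TMA and 7.01 without treatment. The 1352 exon normalization controls were lowest on the TMA array. Their median log2 difference was -0.37 for TMA minus no treatment and 0.39 for EEC+TMA minus TMA. What part any of these shifts has in the differences below was not tested.

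**Figure D1:**
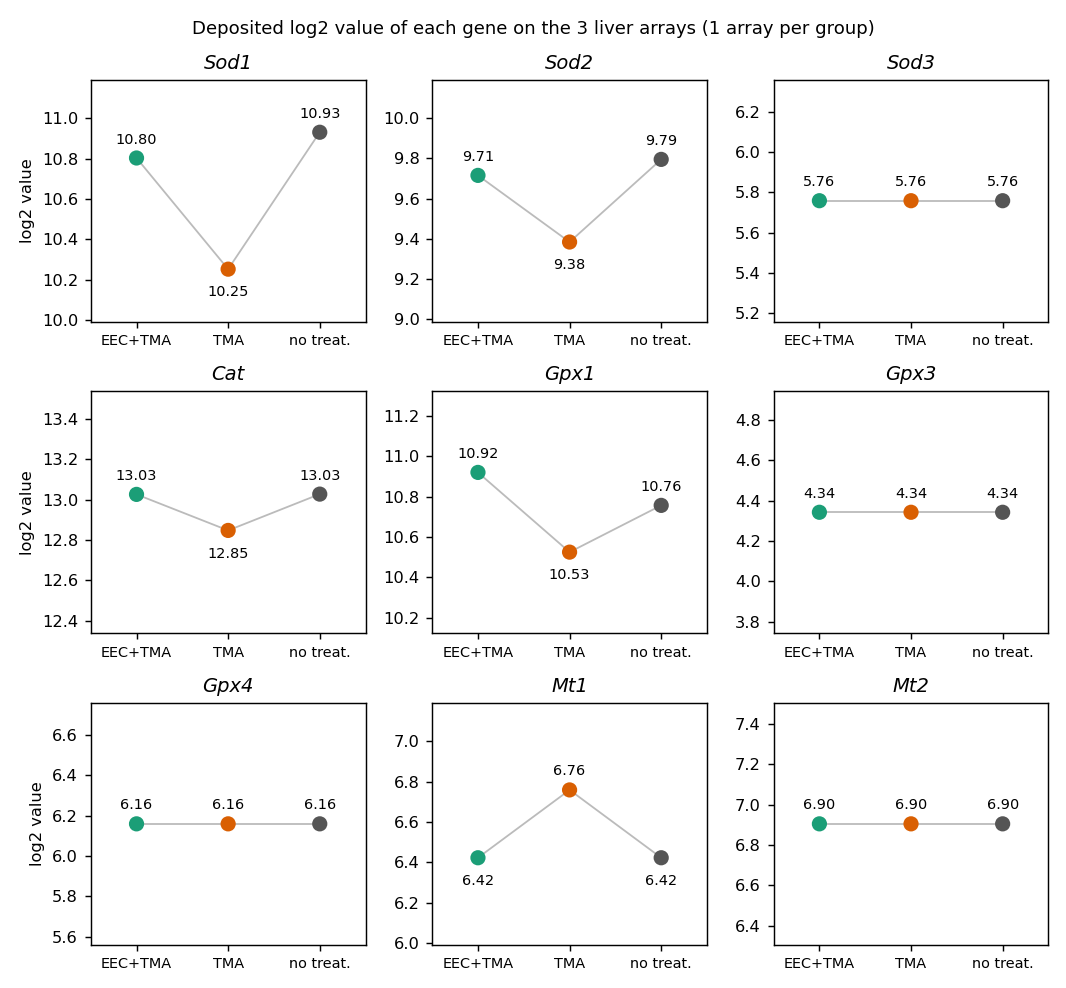
Deposited log2 value (vertical axis, each panel spanning the same height in log2 units) of the 9 genes on the EEC+TMA, TMA and no treatment arrays, 1 point per array, with grey lines to guide the eye and no error bars because each group has 1 array. Sod1, Sod2, Gpx1 and Cat were lowest on the TMA array, Mt1 was highest there, and Sod3, Gpx3, Gpx4 and Mt2 had the same value on all 3 arrays.

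Sod1 encodes the copper- and zinc-dependent dismutase of the cytosol and the space between the mitochondrial membranes. Its log2 value was 10.80 with EEC+TMA, 10.25 with TMA and 10.93 without treatment. The TMA array was thus lowest, and the other two lay close together. The TMA array was 1.60-fold below the no treatment array (log2 difference -0.68), the widest gap among the 9 genes, and the EEC+TMA array was 1.47-fold above the TMA array (0.55). Against no treatment, the EEC+TMA array was 1.09-fold lower (-0.13). Of all genes measured on both arrays, 4.30% had a lower TMA minus no treatment difference than Sod1. Among the 153 genes with a mean level between 10 and 11, 8.50% were lower by 1.5-fold or more with TMA, and Sod1 lay 0.44 below their median. Sod1 lies on chromosome 16, 90220742 to 90226324, in the deposited annotation, with a build not given in the sources used here. For each of the 9 genes the annotated interval overlapped the GRCm38.p6 locus of the same gene.

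Sod2, the manganese-dependent dismutase of the mitochondrial matrix, repeated the order of Sod1 over a narrower span. It lies on chromosome 17, 13007839 to 13018119. It read 9.71 with EEC+TMA, 9.38 with TMA and 9.79 without treatment. The TMA value was 1.33-fold below no treatment (log2 difference -0.41), and the EEC+TMA value was 1.26-fold above TMA (0.33) and 1.06-fold below no treatment (-0.08). Against the 260 genes of its level interval, 9 to 10, Sod2 lay 0.17 below the median for TMA minus no treatment. Sod3 (chromosome 5, 52363804 to 52371405), the extracellular dismutase that binds to the vessel wall and matrix, gave the same value of 5.76 on the EEC+TMA, TMA and no treatment arrays.

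The promoters of Sod1 and Sod2 are shown because these are the members with the widest spans that were lower together on the TMA array. Each window runs from 250 bases before to 50 bases after the annotated start of the gene, on the plus strand of GRCm38.p6, from RefSeq, at chr16:90220512-90220811 for Sod1 and chr17:13007589-13007888 for Sod2. Capitals mark the GC box GGGCGG on either strand, the letters bound by Sp1-type factors, with overlapping matches run together.
Sod1: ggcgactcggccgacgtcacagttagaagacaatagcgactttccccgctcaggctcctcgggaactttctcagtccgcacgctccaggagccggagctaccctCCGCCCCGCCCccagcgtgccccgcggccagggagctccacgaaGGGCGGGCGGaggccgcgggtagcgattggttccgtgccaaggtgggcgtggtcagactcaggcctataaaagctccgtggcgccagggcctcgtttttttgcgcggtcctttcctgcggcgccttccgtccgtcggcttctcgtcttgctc
Sod2: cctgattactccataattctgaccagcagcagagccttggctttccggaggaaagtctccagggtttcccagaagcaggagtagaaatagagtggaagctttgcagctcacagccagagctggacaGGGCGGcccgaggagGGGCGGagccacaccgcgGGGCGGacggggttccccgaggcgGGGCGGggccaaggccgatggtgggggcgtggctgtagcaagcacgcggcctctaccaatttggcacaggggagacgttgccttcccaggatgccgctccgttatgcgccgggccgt
Both windows held 4 matches. At least 1 match was present in 35.7% of the 32851 RefSeq promoter windows of the same length, and at least 4 in 5.49%. The windows of Cat, Gpx1 and Gpx3 held 1 match each, those of Gpx4 between 0 and 2, that of Mt1 held 3 and that of Mt2 none. The Sod1 window also matched TGACNNNGC, the core of the antioxidant response element, on either strand, as did 12.4% of windows. Among the other members the Mt2 window held 1 such match, and the Sod2 window and the rest held none. A match is a property of these letters and not a binding site.

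Cat encodes the peroxisomal haem enzyme that splits hydrogen peroxide into water and oxygen. It lies on the minus strand of chromosome 2, 103453849 to 103485160, and read 13.03 with EEC+TMA, 12.85 with TMA and 13.03 without treatment. The EEC+TMA and no treatment values were 0.001 apart in log2, and TMA was 1.13-fold below each of them. Gpx1, the selenium-dependent peroxidase of cytosol and mitochondria on chromosome 9, 108339080 to 108340342, read 10.92 with EEC+TMA, 10.53 with TMA and 10.76 without treatment. Its order differed from that of the dismutases, since the EEC+TMA value was the highest, 1.32-fold above TMA (log2 difference 0.40) and 1.12-fold above no treatment (0.16). The TMA value was 1.17-fold below no treatment (-0.23), against a median of -0.24 for genes between 10 and 11, so Gpx1 lay 0.01 above the genes of its level. Cat lay 0.12 below the 53 genes of its own level interval.

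For both remaining peroxidases the 3 arrays gave exactly equal values. Gpx4, which reduces lipid peroxides within membranes and restrains ferroptosis, a form of cell death driven by lipid peroxidation, lies on chromosome 10, 80047166 to 80056439, and had a value of 6.16 on all 3 arrays. Gpx3, the secreted plasma peroxidase made mainly in kidney, lies on chromosome 11, 54902453 to 54910382, and had 4.34 on all 3. Kidney and adipose markers, which would accompany Gpx3 from those tissues, were measured for 3 of 8 genes (Fabp4, Slc34a1 and Cidec), and the log2 of the summed linear values of all 8 was 6.18 with EEC+TMA, 6.19 with TMA and 6.17 without treatment. Of the same list, Umod, Kap, Slc12a1 and Adipoq were below background on every array.

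Mt1 and Mt2 encode the metallothioneins expressed in mouse liver and are neighbours on chromosome 8, Mt2 at 94172618 to 94173567 and Mt1 at 94179089 to 94180327, 5522 bases further on. Mt1 read 6.42 with EEC+TMA, 6.76 with TMA and 6.42 without treatment, with exactly the same value in the first and the last of these. The TMA array was 1.26-fold higher than both (log2 difference 0.34 against no treatment). Mt2 had 6.90 on all 3 arrays. Mt1 was the single member with its highest value on the TMA array, and 5.68% of measured genes had a higher TMA minus no treatment difference. Among the 2060 genes with a mean level between 6 and 7, where 65.6% were lower and 10.0% higher with TMA than without treatment, Mt1 lay 0.46 above the median. Of the other genes in this cluster, Mt3, the brain-type metallothionein, was 3.77 with EEC+TMA, 3.77 with TMA and 3.38 without treatment, close to background, and Mt4, an epithelial form, was at 2.61 and below background throughout. Of the 7 further glutathione peroxidase and metallothionein genes, Mt3 and Gpx7, a peroxidase of the endoplasmic reticulum, were measured, and Gpx7 was 3.32 with EEC+TMA, 3.62 with TMA and 3.17 without treatment.

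The promoter windows of Mt1 (chr8:94178839-94179138) and Mt2 (chr8:94172368-94172667), plus strand, GRCm38.p6, RefSeq, are shown because the neighbours differed, as deposited, in whether their value on the TMA array stood apart. After quantile normalization and loess Mt2 stood at 0.24 and 0.12 for TMA minus no treatment. Because its deposited values were equal, these are the corrections themselves, and no direction is read from them. The equal deposited values of Mt2 are not read as unchanged RNA. Capitals mark the core of the metal response element, TGCACNC or TGCGCNC on either strand, the letters recognised by the zinc-sensing factor MTF1.
Mt1: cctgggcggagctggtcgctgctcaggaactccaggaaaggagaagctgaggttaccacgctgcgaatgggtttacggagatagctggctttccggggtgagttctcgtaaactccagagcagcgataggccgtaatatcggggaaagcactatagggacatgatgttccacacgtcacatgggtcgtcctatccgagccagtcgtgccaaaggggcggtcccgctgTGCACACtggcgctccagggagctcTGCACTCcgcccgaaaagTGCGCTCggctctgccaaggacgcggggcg
Mt2: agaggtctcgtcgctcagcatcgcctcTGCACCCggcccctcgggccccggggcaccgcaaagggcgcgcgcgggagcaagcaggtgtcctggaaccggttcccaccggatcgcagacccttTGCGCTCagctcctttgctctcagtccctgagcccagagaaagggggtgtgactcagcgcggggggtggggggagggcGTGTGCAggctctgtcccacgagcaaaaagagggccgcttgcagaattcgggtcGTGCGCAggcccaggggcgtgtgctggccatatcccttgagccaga
Mt1 had 3 matches and Mt2 had 4. Of all 32851 windows, 25.7% held at least 1 match, 1.97% at least 3 and 0.517% at least 4, and the windows of the other 6 members with a RefSeq promoter held none. Mtf1 itself had the same value of 5.44 on the EEC+TMA, TMA and no treatment arrays. Sod3 had no entry among the promoter windows.

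**Figure D2:**
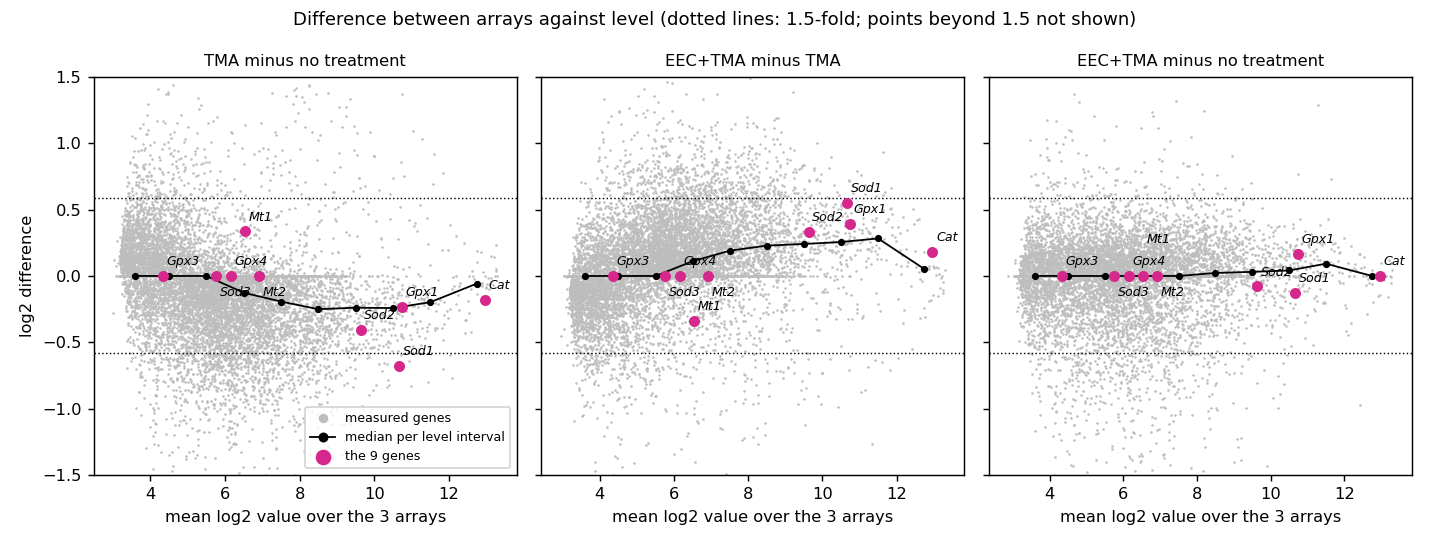
Log2 difference (vertical axis) against the mean log2 value over the 3 arrays (horizontal axis) for TMA minus no treatment, EEC+TMA minus TMA and EEC+TMA minus no treatment, with measured genes in grey, the median per level interval as a black line and the 9 genes in pink. Sod1 lies past the dotted 1.5-fold line in the first panel, at -0.68, and Gpx1 lies on the black line there.

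Counted together, 1 of the 9 genes was at least 1.5-fold apart between the TMA and no treatment arrays. It was Sod1, on the lower side, where 6.38% of the 15716 genes measured on both arrays also lay. On the higher side there was no member, against 2.25% of measured genes. Quantile normalization made these shares of all measured genes 3.65% lower and 2.8% higher, and loess 4.6% lower and 2.54% higher. Any difference below 0 was found in 4 of 9 genes, against 37.6% of measured genes, above 0 in 1 of 9, against 19.1%, and exactly 0 in 4 of 9, against 43.3%. The median of the 9 differences was 0, as it was for all measured genes. Between the EEC+TMA and TMA arrays no member was 1.5-fold apart, against 4.69% of 15756 genes on the higher side and 2.11% on the lower side, with 4 of 9 members above 0 (36.4% of genes), 1 of 9 below 0 (19.3%) and 4 of 9 at 0 (44.3%). Quantile normalization made the shares past 1.5-fold 2.65% higher and 2.68% lower, while after loess they were 3.07% and 2.53%. For EEC+TMA against no treatment no member reached 1.5-fold either, against 0.892% of 16143 genes higher and 3.16% lower, and the largest member difference was that of Gpx1, at 0.16. Of the members, 1 of 9 was above 0 in that comparison (25.4% of genes), 3 of 9 below 0 (19.9%) and 5 of 9 at 0 (54.6%). At a smaller threshold, log2 0.32, 3 members were apart between TMA and no treatment (22.2% of genes), 4 between EEC+TMA and TMA (19.9%) and 0 between EEC+TMA and no treatment (11.8%). At 2-fold there was no member in any comparison, against 1.85% for TMA against no treatment, 0.984% for EEC+TMA against TMA and 1.18% for EEC+TMA against no treatment. Since the TMA array enters both of the first comparisons, its low or high value of a gene appears in each with opposite sign. None of the 9 genes was in the authors' deposited tables of probe sets for TMA against no treatment (198 entries) and EEC+TMA against TMA (68 entries), in which the smallest fold was 2.51 in both.

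Exactly equal values made up much of this pattern. Sod3, Gpx3, Gpx4 and Mt2, 4 of 9 genes, had the same 5-decimal value on all 3 arrays, as had 36.6% of the genes measured on all 3. Equality was tied to level in the whole table, at 46.2% of genes with a mean between 4 and 5 (where Gpx3 lies), 31.4% between 5 and 6 (Sod3), 16.0% between 6 and 7 (Gpx4 and Mt2) and 1.31% between 10 and 11. How probes were summarised was not given in the sources used here. Median polish, a usual summary for this kind of array, can return exactly equal values when few arrays are summarised, so that equal values are not read here as unchanged RNA.

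**Figure D3:**
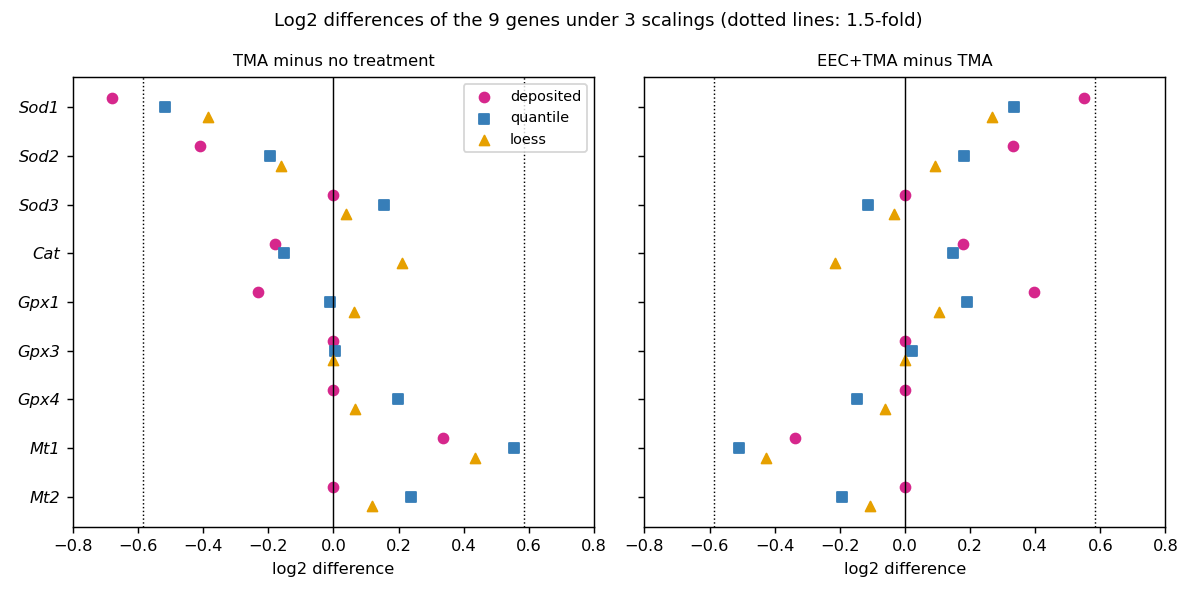
Log2 difference (horizontal axis) of each gene for TMA minus no treatment and EEC+TMA minus TMA under the deposited scaling (circles), quantile normalization (squares) and loess on level (triangles), 1 value per gene and scaling. Sod1 is lowest in the left panel under each scaling and Mt1 is furthest to the right, whereas Gpx1 and Cat sit below or above 0 depending on the scaling.

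The direction on the TMA array depended on scaling for part of the members. Relative to no treatment, Sod1 was -0.52 after quantile normalization and -0.39 after loess on level, below 1.5-fold in both, and Sod2 was -0.20 and -0.16. Gpx1 was at -0.01 and 0.06, and Cat at -0.15 and 0.21, so the lower value of Cat and Gpx1 on the TMA array turned round under loess. Cat is among the 53 genes above level 12, whose deposited median was -0.06 for TMA minus no treatment. Loess moved Cat by much more than that median. With so few genes at this level the fit is a limit of loess, and the turn of Cat is not read as a direction. Mt1 lay further above 0 under the same scalings, at 0.55 and 0.43, and Mt2 was at 0.24 and 0.12. Counted over the 9 genes for TMA against no treatment, 1 higher and 4 lower as deposited became 5 higher and 4 lower after quantile normalization and 6 higher and 3 lower after loess. For EEC+TMA against TMA, 4 higher and 1 lower became 5 higher and 4 lower, and 3 higher and 6 lower. In that comparison Sod1 was 0.33 after quantile normalization and 0.27 after loess, Gpx1 was 0.19 and 0.10, Mt1 was -0.51 and -0.43, and Cat was 0.15 and -0.21. Exactly equal genes moved too, Sod3 to 0.16, Gpx4 to 0.20 and Mt2 to 0.24 for TMA minus no treatment after quantile normalization. Such values are the correction alone, so no direction is read for these genes, although the counts over the 9 genes include them.

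Thioredoxin-dependent enzymes share the peroxide substrate with catalase and Gpx1. As background for this list and those below, 37.6% of all measured genes were lower and 19.1% higher with TMA than without treatment. At least 1.5-fold lower were 6.38%. The share lower with TMA was 65.6% at levels of 6 to 7, 75.2% at 7 to 8 and 78.3% at 8 to 9. List counts are not read as results about a list. Of 17 measured peroxiredoxin, thioredoxin and glutaredoxin genes, 11 were lower and 2 higher with TMA than without treatment. The balance was 6 lower and 11 higher after quantile normalization but 11 lower and 6 higher after loess. Lower by at least 1.5-fold were Glrx5, a mitochondrial glutaredoxin of iron-sulphur cluster assembly (7.10 on the TMA array, against 7.77 on the no treatment array), and Txnip, an inhibitor of thioredoxin (7.52 on the TMA array, against 8.15 on the no treatment array). Under quantile normalization and under loess 0 genes of this list were 1.5-fold lower. For EEC+TMA against TMA, 13 were higher and none lower, with a median of 0.19, where 36.4% of all measured genes were higher. By level the share higher with EEC+TMA was 64.0% at 6 to 7, 71.5% at 7 to 8 and 76.9% at 8 to 9. Quantile normalization left 12 higher and 4 lower at a median of 0.06, and loess left 13 higher and 4 lower at a median of 0.15. Glrx5 was 8.02 and Txnip 7.89 on the EEC+TMA array. The peroxiredoxin gene Prdx5 was 8.32 with EEC+TMA, 7.73 with TMA and 8.06 without treatment. The probe set of Prdx1 gave exactly 2.97 on all 3 arrays, below background. Absence of Prdx1 RNA from liver is not read from that value.

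Glutathione peroxidases draw on glutathione and NADPH. Among 13 measured genes of glutathione synthesis, recycling and NADPH supply, 8 were lower and 2 higher with TMA than without treatment, none by 1.5-fold, and 9 were lower under both quantile normalization and loess. Oplah, which returns 5-oxoproline to glutamate, was 7.74 with EEC+TMA, 7.05 with TMA and 7.36 without treatment. Idh1, a cytosolic source of NADPH, was 10.34 with EEC+TMA, 9.95 with TMA and 10.35 without treatment, the order seen for Sod1. Slc25a39, the mitochondrial glutathione importer, was 8.69 with EEC+TMA, 8.19 with TMA and 8.50 without treatment.

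Gpx1 and Gpx4 need selenium for their synthesis, and selenoproteins form the wider family of these peroxidases. Of 17 measured genes, 10 were lower and 2 higher with TMA than without treatment, but 12 were higher under quantile normalization and 10 under loess. There were 2 genes of the list, against 4.69% of all measured genes, at least 1.5-fold higher with EEC+TMA than with TMA. They were Msrb1, a methionine sulfoxide reductase (8.35 on the EEC+TMA array, against 7.72 on the TMA array), and the selenium-binding protein gene Selenbp1 (9.19 on the EEC+TMA array, against 8.56 on the TMA array), whose probe set is not unique. Under quantile normalization and under loess 0 genes of this list were 1.5-fold higher and 1 was 1.5-fold lower. Selt, an endoplasmic reticulum selenoprotein, was lowest on the EEC+TMA array at 7.95, against 8.36 on the TMA array and 8.69 on the no treatment array.

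Copper, zinc and manganese are the metals of the dismutases and metallothioneins. Of 21 measured genes for their handling, 15 were lower and 1 higher with TMA than without treatment, with a median of -0.21. Of all genes with a mean level between 6 and 7, 65.6% were lower with TMA. For the list there were 11 lower and 10 higher after quantile normalization, and 13 lower and 8 higher after loess with a median of -0.12. The zinc transporter genes Slc30a6 (6.03 on the TMA array, against 6.76 on the no treatment array) and Slc30a7 (5.47 on the TMA array, against 6.33 on the no treatment array) were at least 1.5-fold lower, and their proteins move zinc into the secretory pathway. Under loess 2 genes of the list were 1.5-fold lower, and under quantile normalization 1 was. Slc30a6 was 6.93 on the EEC+TMA array and Slc30a7 was 5.47 there, equal to TMA. Slc30a5, the partner of Slc30a6 in zinc transport, was 6.32 with EEC+TMA, 5.76 with TMA and 6.32 without treatment. Between EEC+TMA and TMA, 12 genes were higher and 2 lower, against 11 higher and 10 lower after either quantile normalization or loess. Of all genes with a mean level between 6 and 7, 64.0% were higher with EEC+TMA than with TMA. Ccs, the chaperone that loads copper into Sod1, was 8.03 with EEC+TMA, 7.80 with TMA and 7.89 without treatment.

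Catalase works beside the oxidases that make peroxide in peroxisomes. None of 23 measured genes for peroxisome import and peroxide-forming oxidases was 1.5-fold apart in any of the 3 comparisons. Below 0 were 14 and above 0 were 2 for TMA against no treatment, beside 37.6% and 19.1% of all measured genes. The balance of the list turned to 7 lower and 16 higher under quantile normalization. Between EEC+TMA and TMA, 13 higher and 1 lower turned to 7 higher and 16 lower under quantile normalization and loess alike. Of all measured genes 36.4% were higher and 19.3% lower in that comparison, and 64.0% were higher at levels of 6 to 7. Acox3, an oxidase of branched-chain fatty acids, was 5.82 with EEC+TMA, 5.33 with TMA and 5.63 without treatment, and Xdh, the xanthine oxidase gene, was 7.76 with EEC+TMA, 7.36 with TMA and 7.56 without treatment. Pex11a, a peroxisome division gene, was 6.76 with EEC+TMA, 6.34 with TMA and 6.76 without treatment.

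Glucocorticoids induce metallothioneins, and 12 genes that respond to them were set beside Mt1 and Mt2. Of the 12 genes, 3 (Dusp1, Zbtb16 and Klf9) were at least 1.5-fold lower with TMA than without treatment, and none was 1.5-fold higher, against 6.38% and 2.25% of all measured genes. Under quantile normalization and under loess 2 were 1.5-fold lower. In any size, 6 lower and 2 higher became 5 lower and 7 higher after quantile normalization, and 4 lower and 8 higher after loess. Dusp1, a phosphatase of stress kinases, was 8.03 with EEC+TMA, 7.44 with TMA and 8.55 without treatment. Zbtb16, a transcription factor, was 5.85 with EEC+TMA, 4.89 with TMA and 5.83 without treatment. Klf9, another, was 8.29 with EEC+TMA, 8.11 with TMA and 8.70 without treatment. Others of the list did not share the lower value on the TMA array as deposited. Fkbp5, Per1, Sgk1 and Tsc22d3 had equal values on the TMA and no treatment arrays. Cdkn1a and Lcn2 were higher with TMA, by log2 differences of 0.20 and 0.17. Nr3c1, Tat and Hsd11b1 were lower by less than 1.5-fold. The list had a median of -0.06, which became 0.07 under quantile normalization.

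**Figure D4:**
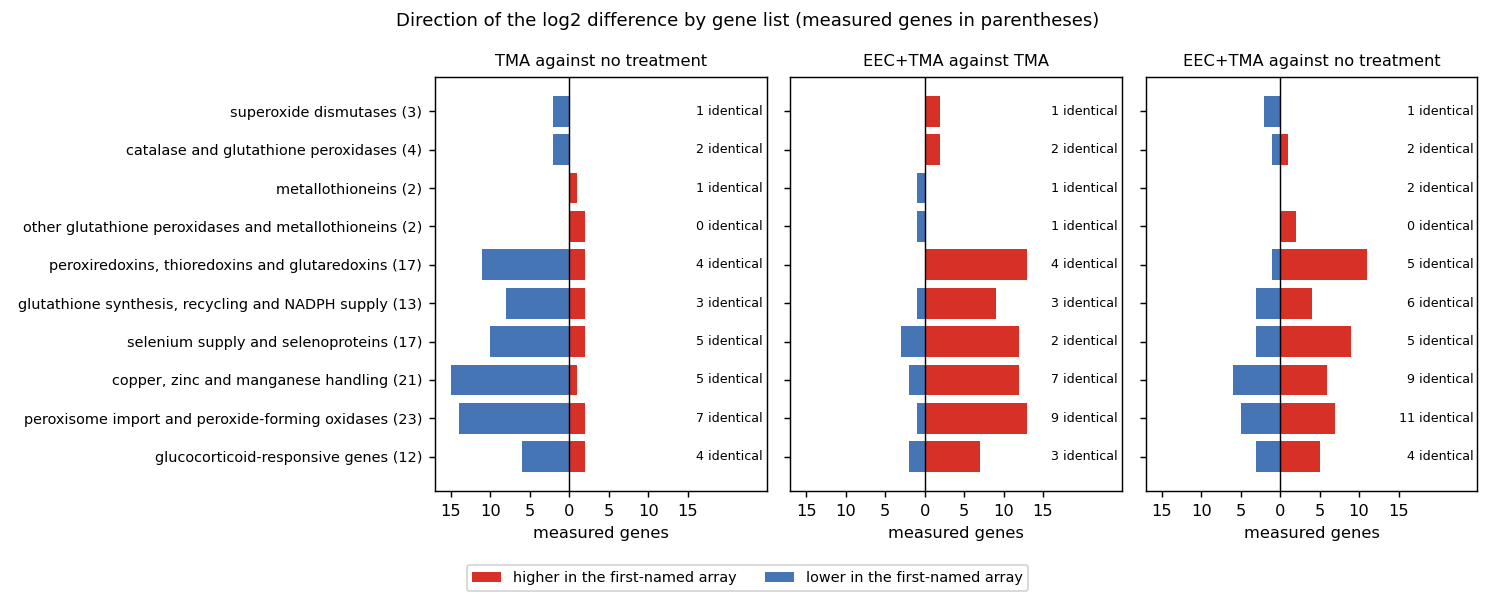
Number of measured genes per list that were higher (red, right of 0) or lower (blue, left of 0) on the first-named array of each comparison, with the number of exactly equal values printed at the right and the measured genes of a list in parentheses. In the first panel blue bars are the longer ones in the pathway lists from peroxiredoxins down, at 11, 8, 10, 15, 14 and 6 genes, under the deposited scaling.

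Markers of cell types were read beside the members. Hepatocyte markers were lower with TMA than without treatment for 9 of 11 measured genes, with a median of -0.28. Their summed level (log2 of the summed linear values of the list) was 15.38 with EEC+TMA, 15.12 with TMA and 15.36 without treatment. The balance was 9 lower and 2 higher after quantile normalization but 4 lower and 7 higher after loess. Several of these markers, among them Alb, Ttr and Apoa2, lie above level 12 and share the limit of loess given for Cat. The balance after loess is therefore not read as a direction. Sinusoidal endothelial markers were lower on the TMA array for 6 of 8, with a median of -0.35 and summed levels of 10.49 with EEC+TMA, 9.92 with TMA and 10.37 without treatment, and 6 of 8 were lower under quantile normalization and loess too. Kupffer cell and macrophage markers were higher on the TMA array for 9 of 12, with summed levels of 9.71 with EEC+TMA, 9.53 with TMA and 9.34 without treatment. Hepatocyte and endothelial summed levels were thus lowest on the TMA array, as were Sod1, Sod2, Cat and Gpx1, while macrophage levels were lowest without treatment. Their part in the differences of the 9 genes was not tested. Erythrocytes are rich in Sod1, catalase and Gpx1 protein, and 6 of 10 erythroid markers found were measured, with summed levels of 10.03 with EEC+TMA, 9.85 with TMA and 9.89 without treatment. The erythroid genes Hbb-bs, Epb42 and Rhag were below background on each array, as were all 8 neutrophil markers. Stellate cell markers were lower on the TMA array for 5 of 8, and lymphocyte markers were higher for 2 of 4 measured. Of 3 measured cholangiocyte markers, 2 were higher and 1 was 1.5-fold lower with TMA, and the summed level of their list was 6.96 with EEC+TMA, 6.95 with TMA and 7.05 without treatment.

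Sod1 was the member with a span of at least 1.5-fold over the arrays, and its pair of differences (TMA minus no treatment, EEC+TMA minus TMA) was set against those of 15646 other measured genes. The nearest named genes were Uvrag (distance 0.009, with differences of -0.68 and 0.54), Pdpr (0.0098, with -0.67 and 0.55) and Herc1 (0.023, with -0.69 and 0.53). Uvrag acts in autophagy, Pdpr regulates the phosphatase of pyruvate dehydrogenase, and Herc1 is a ubiquitin ligase. Within a distance of 0.1 lay 84 genes.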

How the data were processed

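Liver RNA of 3 groups was read on 1 MoGene-2_0-st array each. The authors deposited log2 values, 1 per probe set and array, in an annotated table and in the series matrix, equal within 5e-05. How they were summarised and normalized was not given in the sources used here, so these deposited log2 values were used unaltered, as were the signed folds of the authors' deposited tables. With Python 3.11.15 and pandas 2.3.3, the probe set with the highest mean was kept for each symbol. Log2 differences were computed between arrays, counted as called at 1.5-fold, and set beside the share of all genes measured on both arrays. No test was possible with 1 array per group, so the number of arrays limits the precision. Gene lists (7 pathway lists and 9 cell type lists, 197 entries) named up to 3 genes each, those with the widest span over the arrays. Further genes named from a list, among them Prdx1, Ccs, Mtf1 and the markers below background, were chosen after their values were seen. The members and lists were chosen with earlier results of these data known. Alternatives were median centring, quantile normalization, loess on level (span 0.3, statsmodels 0.14.6), other background percentiles and thresholds, the mean of all probe sets, unique probe sets and the series matrix. The scripts were tested on simulated data. Promoter windows and the check of loci came from RefSeq tables of GRCm38.p6.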

Additional observations from a re-analysis of the deposited data

How the results depend on the processing

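The median difference of the 9 genes moved by less than 0.1 (log2) in each of the 3 comparisons under median centring, quantile normalization, loess, the 3 other background settings, the mean of all probe sets, unique probe sets and the series matrix values. As deposited that median is 0 because it falls on exactly equal members, so its small movement does not describe single genes. Cat, for TMA minus no treatment, went from -0.18 to 0.21 under loess. That change is not read as a direction, because few genes lie at the level of Cat. The count of members at least 1.5-fold apart did depend on choices. For TMA against no treatment it was 1 as deposited, 0 after quantile normalization, 0 after loess, 0 at a 2-fold threshold and 3 at a threshold of log2 0.32 (Mt1 higher, Sod1 and Sod2 lower). For EEC+TMA against TMA it was 0 as deposited, 1 after median centring (Sod1 higher) and 4 at that lower threshold (3 higher, 1 lower). For EEC+TMA against no treatment it was 0 under every alternative run. With a background at the 99th percentile Gpx3 fell below background on the TMA array. The cause of these shifts was not tested. Each group has 1 array, so no replicate could be left out, and signal over background limits Gpx3 most. No paired analysis was possible because each group holds a single array and the result comes from no test.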
